A study of Mus musculus with 12 samples.

Results

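The small leucine-rich proteoglycans are secreted core proteins of the extracellular matrix, and 9 of their genes were followed in mouse dermis: Dcn (decorin), Bgn (biglycan), Aspn (asporin), Lum (lumican), Fmod (fibromodulin), Prelp, Omd (osteomodulin), Ogn (osteoglycin) and Podn (podocan). They were matched by gene symbol, and all 9 were found among the 55401 genes of the expression table. Dermis of 6-week-old C57BL/6 mice was taken at day 0 and day 7 of a skin wound experiment, from wild type (WT) animals and from animals lacking Cthrc1 (Cthrc1-/-), a secreted glycoprotein of healing tissue. Both genotypes were sampled on both days, with 3 samples in each of the 4 groups, which the series' design text calls biological replicates. The allele, the wound size and whether a sample pooled animals are not given in the sources used here, so the p-values measure the spread between these samples.

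Each member is built around a solenoid of leucine-rich repeats, flanked by cysteine clusters, that binds collagen fibrils and sets how they assemble. Decorin and biglycan carry chondroitin or dermatan sulfate chains and belong, with asporin, to class I of the family. Lumican, fibromodulin, Prelp and osteomodulin are class II members, several of which carry keratan sulfate, osteoglycin is class III and podocan belongs to a later, non-canonical class. In skin the family is made mainly by fibroblasts. Decorin is the principal proteoglycan of resting dermis and can sequester TGF-beta, and biglycan shed from matrix can signal through the Toll-like receptors TLR2 and TLR4.

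Most of these genes lie in clusters of family members. On the GRCm38 build with the GENCODE M21 annotation, Dcn (chromosome 10, 97479609 to 97518143, plus strand) is followed 47.0 kb downstream by Lum (97565128 to 97572703). Aspn (chromosome 13, 49544443 to 49567565), Omd (49582462 to 49592822) and Ogn (49608046 to 49624501) follow one another on the plus strand with gaps of 14.9 and 15.2 kb. Prelp (chromosome 1, 133910304 to 133921414, minus strand) and Fmod (134037254 to 134048277, plus strand) are 115.8 kb apart. No annotated protein-coding gene lies within any of these gaps. Bgn (chromosome X, 73483602 to 73495933, plus strand) and Podn (chromosome 4, 108014791 to 108096445, minus strand) lie outside these clusters. Podn overlaps Scp2 on the same strand, which averaged 32.3 FPKM, and shares 0 exon bases with it. Aspn, Omd and Ogn lie inside Cenpp, which is on the opposite strand and averaged 1.41 FPKM, and the only shared exon bases are 7 in Aspn. Prelp shares 350 exon bases with the antisense gene Gm15851, which averaged 0.0935 FPKM, and reads of such pairs cannot be told apart where strand was not used in counting, which is not stated.

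RefSeq start regions (GRCm38.p6, 250 bases before to 50 bases after the start) were found for 7 of the 9 members in the table of promoters used here. The 250 bases before the start are printed for Bgn and Fmod, the pair that moved in opposite directions between the days in WT dermis, and for Aspn, the most AT-rich of the 7. Capitals mark matches, on either strand, to 4 promoter motifs. The letters searched were TATAAA for the TATA box, GGGCGG for the GC box, CCAAT for the box of that name and TGANTCA for the AP-1 site.
Bgn, chrX:73483351-73483600, plus strand: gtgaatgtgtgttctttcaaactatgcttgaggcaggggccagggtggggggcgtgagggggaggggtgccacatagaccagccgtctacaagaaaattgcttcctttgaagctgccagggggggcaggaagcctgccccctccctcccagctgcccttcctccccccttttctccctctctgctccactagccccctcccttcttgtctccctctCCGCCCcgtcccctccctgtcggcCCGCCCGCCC
Fmod, chr1:134037004-134037253, plus strand: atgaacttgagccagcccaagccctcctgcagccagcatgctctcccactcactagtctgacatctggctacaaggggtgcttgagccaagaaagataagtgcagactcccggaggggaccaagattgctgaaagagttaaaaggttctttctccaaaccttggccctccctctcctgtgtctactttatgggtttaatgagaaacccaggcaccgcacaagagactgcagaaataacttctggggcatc
Aspn, chr13:49544193-49544442, plus strand: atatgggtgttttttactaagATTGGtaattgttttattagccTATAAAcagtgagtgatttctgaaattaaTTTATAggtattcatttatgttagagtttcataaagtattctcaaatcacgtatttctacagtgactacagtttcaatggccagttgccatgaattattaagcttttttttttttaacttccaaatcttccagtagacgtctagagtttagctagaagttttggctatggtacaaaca
The Bgn sequence ends in a pyrimidine-rich stretch with 3 matches to the GC box, at -34, -10 and -6 from the start, of which the last overlap each other. Over the whole windows of 300 bases, GC content was 63.7% for Bgn, 51.0% for Fmod and 31.0% for Aspn, against a median of 52.7% (quartiles 45.7% and 61.7%) over 32851 windows of the same length. The upstream Podn window had a GC content of 77.0% and 2 GC boxes, and it is not printed because 136 of its bases lie in an exon of a longer annotated transcript. The Aspn window held 2 TATA boxes at -207 and -178 and a CCAAT box at -229. Of all windows, 35.7% held a GC box, 13.6% a TATA box, 37.4% a CCAAT box and 7.8% an AP-1 site. No member window held the AP-1 letters.

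Libraries held 48329668 to 76938132 counts, and the least abundant member, Omd, had between 51 and 970 counts in each. Cthrc1 had 1813 to 11678 counts in the 6 WT libraries and 0 to 15 in the 6 Cthrc1-/- libraries. Fibroblast markers (10 genes, among them Pdgfra, Dpt and Col6a1) summed to 735 to 1062 FPKM in WT libraries of both days and to 641, 405 and 157 FPKM in Cthrc1-/- day 0 replicates 1, 2 and 3. At day 0 only Thy1 and Fbln1 of these overlapped between the genotypes. In Cthrc1-/- replicate 1 they stood at 83.0 and 27.5 FPKM, against 67.5 to 78.5 and 26.7 to 28.3 FPKM in WT. The 7 markers of the inner root sheath, a layer of the growing hair follicle, summed to 2.77 to 5.54 FPKM in WT day 0 and to 231, 4831 and 11647 FPKM in Cthrc1-/- day 0 replicates 1, 2 and 3. Their day 7 sums were between 1678 and 4042 FPKM in WT libraries and between 510 and 5347 FPKM in Cthrc1-/- libraries. Of these 7, 3 were at 0 in WT day 0 replicate 1 and 1 in replicate 3. The 7 leukocyte markers reached 5679 FPKM in WT day 7 replicate 1, with S100a9 alone at 3409 FPKM, against 1294 and 309 FPKM in replicates 2 and 3. The 7 epidermal keratinocyte markers summed to 2321 to 9661 FPKM in the 12 libraries, so the samples labelled dermis held keratinocyte RNA as well. Other marker sums were also lower in Cthrc1-/- than in WT libraries at day 0: adipocyte markers at 69.6 to 100.4 against 137 to 177 FPKM, endothelial markers at 15.0 to 41.3 against 52.0 to 52.9 FPKM, and tendon, cartilage and bone markers at 8.90 to 19.6 against 34.1 to 47.8 FPKM, all without overlap. Within these lists the adipocyte marker Fabp4 overlapped. Most of the WT tendon, cartilage and bone sum was Tnmd (3.91 to 12.2 FPKM in Cthrc1-/- against 26.5 to 40.3 in WT). Scx was also lower without overlap, while Mkx, Comp and Col2a1 overlapped. Bglap was higher without overlap, at 0.265 to 0.559 against 0 to 0.191 FPKM. Skeletal muscle markers were at 75.4 to 297 against 332 to 759 FPKM, without overlap, and leukocyte markers at 88.2 to 259 against 236 to 255 FPKM, with overlap. The leukocyte markers did not move together. Lyz2 (50.5 to 138 against 186 to 189 FPKM), Cd68 and Csf1r were lower without overlap. S100a9 (11.4 to 62.7 against 3.69 to 7.46 FPKM) and S100a8 were higher without overlap, and Ptprc and Itgam overlapped. Cthrc1-/- day 0 replicate 3, with the lowest fibroblast sum, and WT day 7 replicate 1, with the highest leukocyte sum, stood apart from their groups, and the tests of the members are also given without these 2 libraries. On the inner root sheath sum, Cthrc1-/- day 0 replicate 1 and Cthrc1-/- day 7 replicate 2 (510 FPKM) also lay far below the others of their groups, and the values without single libraries include both.

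In WT day 0 dermis the members spanned a range of 2 orders of magnitude on the FPKM scale (fragments normalised to transcript length and library size). Dcn was highest at 322 ± 17.8 FPKM (SD, n = 3), followed by Lum at 286 ± 26.1, Bgn at 115 ± 14.2 and Aspn at 114 ± 9.07 FPKM. Prelp (39.7 ± 4.34 FPKM), Ogn (34.8 ± 0.0627), Fmod (26.0 ± 2.25), Podn (17.4 ± 1.38) and Omd (3.03 ± 0.238) followed. Replicates of Dcn overlapped those of Lum, and those of Bgn overlapped those of Aspn, while every other pair of neighbours in this order was separated. Dcn, Lum and Bgn together made up 75.4 ± 0.528% of the summed FPKM of the members. The order changed by day 7. In WT day 7 dermis Bgn led with 252 ± 44.7 FPKM, ahead of Lum (248 ± 82.2), Dcn (210 ± 44.1) and Aspn (96.3 ± 68.4), and in Cthrc1-/- day 7 dermis Bgn led with 189.6 ± 18.4 FPKM, ahead of Lum (186 ± 46.6) and Dcn (149 ± 60.3). The replicates of these first 3 genes overlapped within both day 7 groups, so their order at day 7 was not resolved. Omd was the lowest member in all 4 groups, and in each its replicates did not overlap those of Podn, the next lowest.

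**Figure D1:**
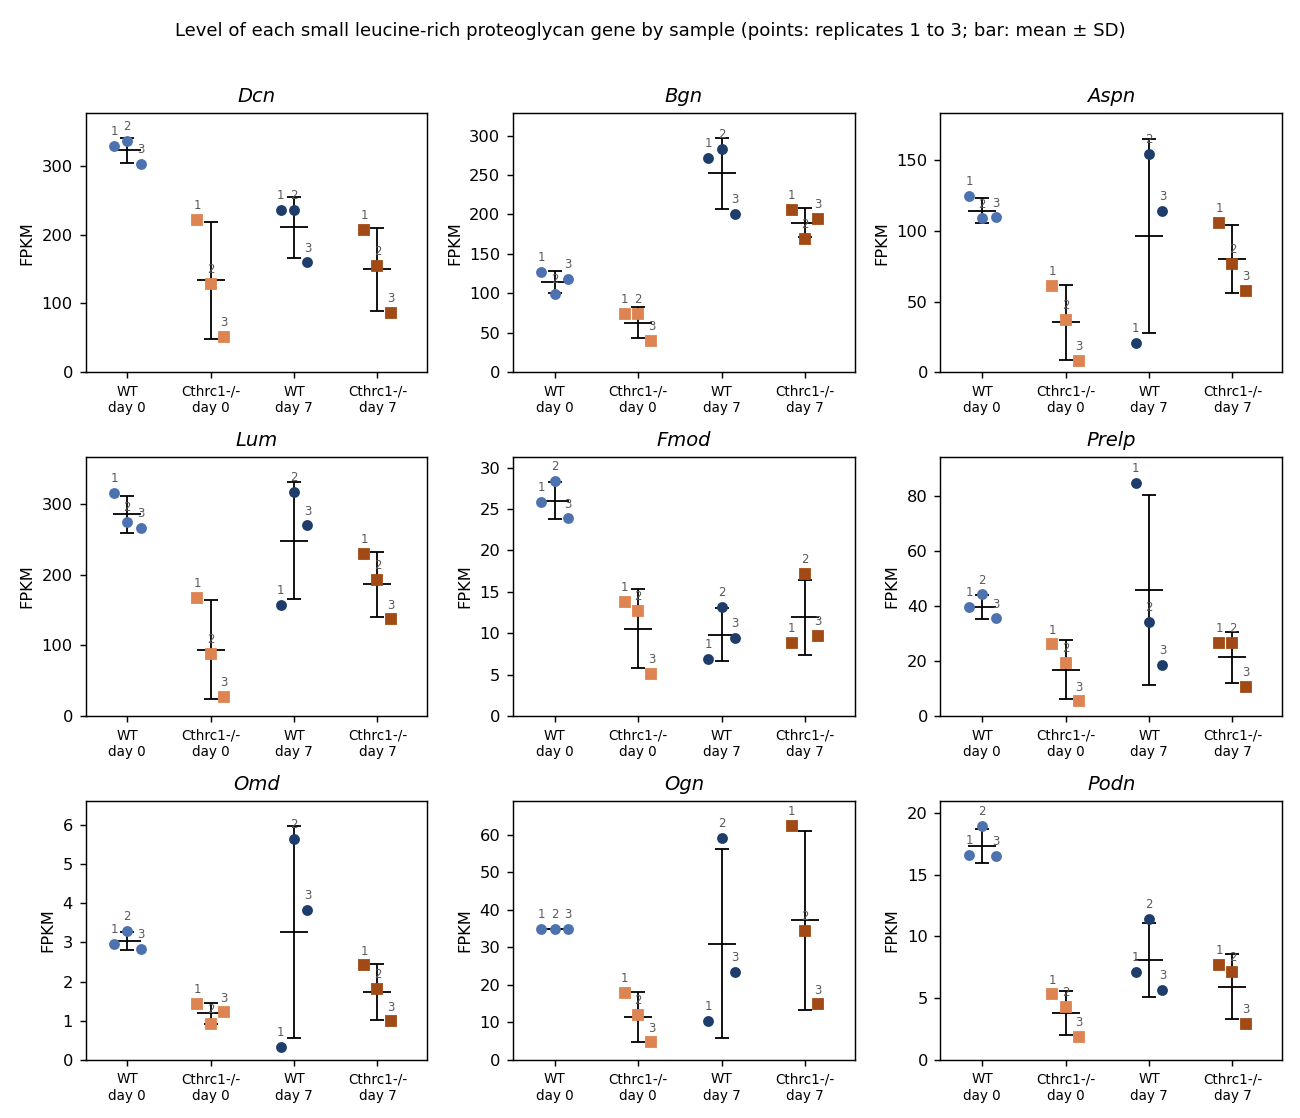
Level of each member in FPKM (vertical axis, linear, from 0) in the 4 groups, with one point per library numbered by replicate and bars at the mean ± SD (n = 3). The WT day 0 points lie close together and above every Cthrc1-/- day 0 point for all 9 genes, while most day 7 groups are widely spread.

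The first comparison asked how the family differed between Cthrc1-/- and WT dermis at day 0. All 9 members were lower in Cthrc1-/- libraries, with no overlap between the groups, against 19.8% of all 14313 tested genes that were lower without overlap. Podn passed the test (edgeR quasi-likelihood test with Benjamini-Hochberg adjustment over all tested genes, adjusted p under 0.05), so 1 of 9 members was called lower, against 2.26% of all genes. At an unadjusted p under 0.05, 7 of 9 members were lower, against 14.8% of all genes. The median log2 change was -1.46 for the members and -0.047 for all genes. In bulk tissue, fewer fibroblasts and less RNA of these genes per fibroblast cannot be told apart, and the adipocyte, endothelial, muscle and tendon marker sums given above were lower at day 0 as well.

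Of class I, Dcn stood at 329, 336 and 302 FPKM in the WT replicates and at 221, 129 and 51.1 FPKM in the Cthrc1-/- replicates. Its log2 change was -1.34 (SE 0.498, adjusted p = 0.116). Bgn stood at 127, 99.0 and 118 FPKM in WT and at 74.4, 73.9 and 40.2 FPKM in Cthrc1-/-. The Bgn difference, -0.96 on the log2 scale (SE 0.277, adjusted p = 0.0676), was the smallest of the 9. Aspn, which binds collagen at the site used by decorin, had 125, 109 and 109 FPKM in WT and 60.8, 36.9 and 8.08 FPKM in Cthrc1-/- libraries. Its log2 change of -1.76 came with a wide error (SE 0.738, adjusted p = 0.152), and the Cthrc1-/- libraries spread over a 7.52-fold range.

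Of class II, Lum stood at 315, 275 and 267 FPKM in WT and at 168, 87.7 and 27.0 FPKM in Cthrc1-/- libraries (log2 change -1.67, SE 0.541, adjusted p = 0.0860). Fmod, which guides fibril maturation together with lumican, had 25.8, 28.3 and 23.9 FPKM in WT and 13.8, 12.7 and 5.05 FPKM in Cthrc1-/- (log2 change -1.39, SE 0.406, adjusted p = 0.0700). For both genes the gap between the groups was clear in every library, yet the adjusted p missed the threshold. Prelp, a heparin-binding anchor between matrix and basement membrane, had 39.5, 44.1 and 35.4 FPKM in WT and 26.0, 19.3 and 5.27 FPKM in Cthrc1-/- libraries, a log2 change of -1.30 (SE 0.690, adjusted p = 0.239). Omd, known as a protein of bone matrix, was at 2.97, 3.30 and 2.83 FPKM against 1.43, 0.911 and 1.21 FPKM, a log2 change of -1.46 (SE 0.715, adjusted p = 0.208). Of the tendon, cartilage and bone markers, the bone marker Bglap was at most 0.619 FPKM in any library and the cartilage marker Col2a1 at most 0.133 FPKM. The tendon marker Tnmd was present and was itself lower in Cthrc1-/- at day 0 (log2 change -1.86, adjusted p = 0.0496).

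Ogn, the class III member, was nearly constant in WT at 34.9, 34.8 and 34.8 FPKM, and stood at 17.8, 11.9 and 4.61 FPKM in Cthrc1-/- libraries (log2 change -1.68, SE 0.694, adjusted p = 0.147). Podn had 16.6, 19.0 and 16.5 FPKM in WT and 5.30, 4.27 and 1.85 FPKM in Cthrc1-/- libraries. Even the highest Cthrc1-/- library thus lay far below the lowest WT library. Podn fell 4.81-fold, a log2 change of -2.27 (SE 0.481, 95% confidence interval -3.33 to -1.20, adjusted p = 0.0350). The Podn change was between -2.61 and -1.91 with each of the 12 libraries left out in turn. The Podn call was lost without any one of WT day 0 replicates 1, 2 and 3 (adjusted p = 0.0925, 0.115 and 0.106), Cthrc1-/- day 0 replicates 2 and 3 (0.0868 and 0.0668) or Cthrc1-/- day 7 replicate 1 (0.0566), and when the fit held only the day 0 groups (0.0798). In these fits 0.0489% to 0.531% of all genes were called lower, against 2.26% in the reported fit.

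Among the Cthrc1-/- day 0 libraries, replicate 1 was the highest for 9 of 9 members and replicate 3 the lowest for 8 of 9, which is also the order of their fibroblast marker sums and the reverse of their inner root sheath sums. Without replicate 1, 5 members were called lower at day 0 (Podn, and Bgn, Dcn, Fmod and Lum at adjusted p = 0.0429, 0.0326, 0.0425 and 0.0193), while the share of all genes called lower rose from 2.26% to 7.3%. DESeq2 on all libraries called 5 as well, and 8.3% of all genes lower. With WT day 7 replicate 1 left out (4.64% of all genes lower), 2 were called, the other being Omd (log2 change -1.40, adjusted p = 0.0355), and without both libraries that stood apart (2.77%) 2 were called, Podn (log2 change -1.88, adjusted p = 0.0466) and Aspn (-1.25, adjusted p = 0.0478). The count of called members at day 0 therefore ranged from 0 to 5 with the library left out. Over the same fits the share of all genes called lower ranged from 0.0559% to 7.3%, so the count followed calls in general.

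**Figure D2:**
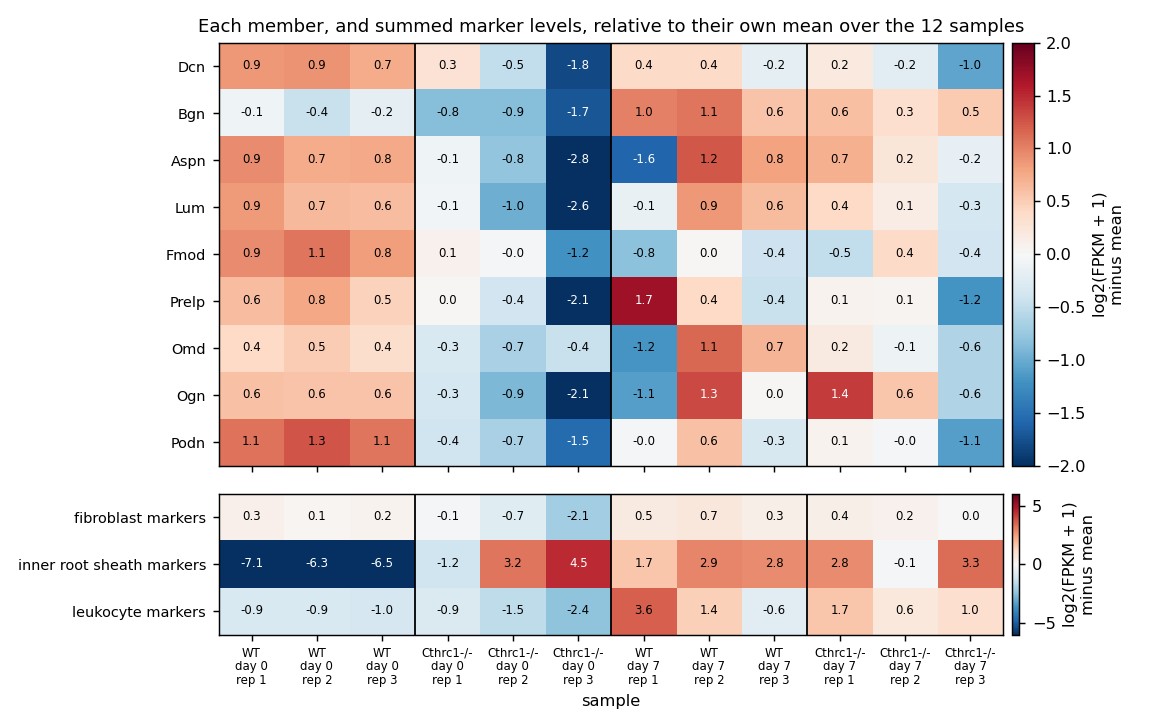
Each row is a gene or a marker sum, centred on its own mean of log2(FPKM + 1) over the 12 libraries in columns, with the colour scale in log2 units and black lines between groups. Cthrc1-/- day 0 replicate 3 is the lowest library for most members and for the fibroblast markers and the highest for the inner root sheath markers, and Bgn is the one member above its mean in all 6 day 7 libraries, as the fibroblast marker sum is too.

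The summed FPKM of the 9 members was also set against the fibroblast marker sum of the same library. This ratio was 1.23, 1.29 and 1.17 in WT day 0 and 0.917, 0.928 and 0.917 in Cthrc1-/- day 0, so the groups did not overlap and the Cthrc1-/- libraries, whose member sums ran from 144 to 588 FPKM, lay close together. Member by member, Podn at day 0 was 2.02 to 2.58% of the fibroblast marker sum in the WT libraries and 0.826 to 1.17% in the Cthrc1-/- libraries. Dcn was 38.9 to 45.7% against 31.7 to 34.4%, Lum 34.3 to 38.3% against 17.1 to 26.1%, Aspn 14.1 to 15.1% against 5.13 to 9.48%, and Ogn 4.24 to 4.74% against 2.78 to 2.93%. These 5 of 9 were lower without overlap on that measure, against 1.96% of all genes divided by the same sum. The divisor was itself lower in Cthrc1-/- libraries, so dividing by it raises every gene there relative to WT. Undivided, 19.8% of all genes were lower without overlap, so the 1.96% is no even yardstick. The share among other fibroblast genes was not computed. Bgn (13.5 to 15.4% against 11.6 to 25.5%), Fmod, Prelp and Omd overlapped. At day 7 the ratio of the member sum to the fibroblast marker sum was 0.819 to 1.05 in WT and 0.754 to 0.995 in Cthrc1-/-, with overlap. The part of the inner root sheath, leukocyte and fibroblast marker differences in the member changes was not tested beyond these ratios.

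At day 7 no member differed between the genotypes by the test, and all 9 overlapped. edgeR called 0 of 9 members, against 0.021% of all genes, and 0 had an unadjusted p under 0.05, against 5.46% of all genes. DESeq2 also called 0. The share of all genes without overlap at day 7 was 2.67% lower and 6.46% higher. Dcn stood at 236, 236 and 159 FPKM in WT and 207, 155 and 86.8 FPKM in Cthrc1-/- (log2 change -0.58, 95% confidence interval -1.67 to 0.51). Bgn stood at 272, 283 and 201 FPKM in WT and 205, 169 and 194 FPKM in Cthrc1-/- (-0.50, interval -1.11 to 0.11). For Bgn only WT replicate 3 lay inside the Cthrc1-/- range, and its interval leaves room for a difference of up to about 1 log2 unit.

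The WT day 7 libraries disagreed most on Aspn, Ogn and Omd. Aspn was 20.9, 154 and 114 FPKM in WT and 106, 76.6 and 57.6 FPKM in Cthrc1-/-. Ogn was 10.2, 59.2 and 23.5 FPKM in WT and 62.3, 34.3 and 14.8 FPKM in Cthrc1-/-. Omd was 0.322, 5.64 and 3.83 FPKM in WT, with only 51 counts in replicate 1, and 2.41, 1.81 and 0.979 FPKM in Cthrc1-/-. In all 3 genes WT replicate 1, the library with the high leukocyte sum, was the lowest of its group. The same library was the highest of its group for Prelp, at 84.7 FPKM against 34.0 and 18.5 FPKM, with 26.6, 26.5 and 10.6 FPKM in Cthrc1-/- libraries. Lum stood at 158, 318 and 270 FPKM in WT and 229, 192 and 137 FPKM in Cthrc1-/-. The log2 changes of these 5 genes ran from -1.24 (Prelp) to 0.22 (Ogn), and adjusted p over all 9 members from 0.956 to 0.998. Fmod, at 6.87, 13.2 and 9.40 FPKM in WT and 8.86, 17.2 and 9.66 FPKM in Cthrc1-/-, had a log2 change of 0.22 (interval -0.67 to 1.10), and Podn one of -0.52 (interval -1.54 to 0.50). Without the 2 libraries that stood apart the count at day 7 was again 0.

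Between day 0 and day 7 in WT dermis Bgn rose, Fmod fell, and the other 7 members did not pass the test. These are 1 of 9 members called higher, against 6.04% of all genes, and 1 of 9 called lower, against 7.1% of all genes, so the counts are close to those of genes in general. WT Bgn went from the 99.0 to 127 FPKM given above to 201 to 283 FPKM, with no overlap. This was a 1.95-fold rise, a log2 change of 0.96 (SE 0.277, 95% confidence interval 0.35 to 1.58, adjusted p = 0.0466), and Bgn was the only member whose WT groups were apart in the upward direction, as were 29.8% of all genes. Fmod stood at 23.9 to 28.3 FPKM at day 0 and at 6.87, 13.2 and 9.40 FPKM at day 7. It fell 3.04-fold, a log2 change of -1.60 (SE 0.408, interval -2.51 to -0.70, adjusted p = 0.0313).

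The WT groups of Dcn and Podn were also apart, so that 3 of 9 members were lower without overlap at day 7, against 14.1% of all genes. Podn had 7.14, 11.4 and 5.64 FPKM at day 7 (log2 change -1.29, SE 0.466, adjusted p = 0.0883), and Dcn had a log2 change of -0.79 (SE 0.492, adjusted p = 0.298). The Podn value passed the threshold with DESeq2 (adjusted p = 0.0331), with the WT groups alone (0.0347) and without Cthrc1-/- day 0 replicate 3 (0.0402). Lum, Ogn, Omd, Aspn and Prelp overlapped between the days, with log2 changes from -0.48 to 0.086 and adjusted p from 0.633 to 0.948.

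Both WT calls depended on single libraries for their adjusted p and not for their size. Over the 12 fits with 1 library left out, the Bgn change ran from 0.86 to 1.14 and the Fmod change from -1.86 to -1.35. The Bgn call was lost without any of the WT day 0 libraries (adjusted p = 0.102, 0.146 and 0.118), WT day 7 replicates 1 and 2 (0.0706 and 0.105), Cthrc1-/- day 0 replicate 2 (0.0595) or any Cthrc1-/- day 7 library (0.0678, 0.0631 and 0.0614). The Fmod call was lost without any of the WT day 0 libraries (0.0780, 0.0896 and 0.0766) or WT day 7 replicates 1 and 3 (0.0930 and 0.0655). With all libraries 13.1% of all genes were called between days in WT. The share was 3.68% to 11.5% in the fits that lost Bgn and 3.68% to 14.3% in those that lost Fmod. Without both libraries that stood apart, Bgn was at 0.87 (adjusted p = 0.0141) and Fmod at -1.41 (adjusted p = 0.0146).

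In Cthrc1-/- dermis Bgn was again higher at day 7, and it was the only one of 9 members called, against 0.859% of all genes called higher. Its Cthrc1-/- libraries went from 40.2 to 74.4 FPKM at day 0 to 169 to 205 FPKM at day 7, with no overlap (21.5% of all genes were higher without overlap). The rise was 2.67-fold, a log2 change of 1.42 (SE 0.279, 95% confidence interval 0.80 to 2.04, adjusted p = 0.0440). With single libraries left out the change ran from 1.15 to 1.59. The call was lost without any WT day 0 library (adjusted p = 0.0780, 0.0748 and 0.0776), Cthrc1-/- day 0 replicates 1 and 2 (0.0541 and 0.111), WT day 7 replicate 2 (0.0672) or any Cthrc1-/- day 7 library (0.141, 0.0974 and 0.0847), and with the Cthrc1-/- groups alone (0.0862). In these fits 0.0349% to 1.08% of all genes were called, against 1.46% in the reported fit. Without the 2 libraries that stood apart the Bgn change was 1.14 (adjusted p = 0.0104).

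The other 8 members overlapped between the days in Cthrc1-/- dermis. Ogn had a larger log2 change than Bgn but a wider error, at 1.51 (SE 0.691, adjusted p = 0.280). Aspn was at 0.99, Lum at 0.79, Omd at 0.39 and Prelp at 0.15, with adjusted p from 0.468 to 0.939. Fmod, which fell in WT, stood at 8.86, 17.2 and 9.66 FPKM at day 7, within the spread of the day 0 libraries with 1 exception, and the interval of its log2 change was -0.89 to 0.88. Podn had 7.71, 7.15 and 2.89 FPKM at day 7 (log2 change 0.46, interval -0.57 to 1.48). Dcn had a log2 change of -0.023 (interval -1.11 to 1.07). The WT and Cthrc1-/- time courses do not share samples, but the comparisons of genotypes and of days do share groups, so their values are set side by side here without a measure of their likeness.

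**Figure D3:**
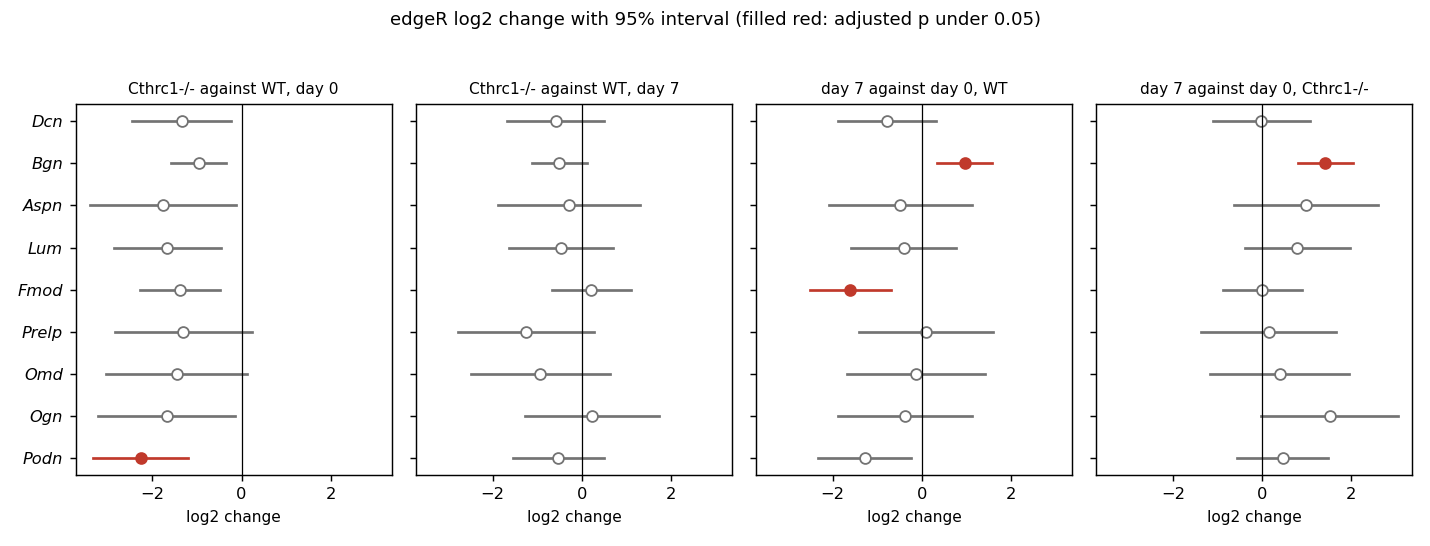
Log2 change of each member in the 4 comparisons of 2 groups, from edgeR, with horizontal bars for the 95% confidence interval, filled points for called members and a vertical line at 0. All 9 points lie left of 0 in the day 0 comparison, and Bgn lies right of 0 with a filled point in both comparisons of days.

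Whether the change from day 0 to day 7 differed between the genotypes was tested as an interaction of genotype and day. edgeR called 0 of 9 members, against 0.014% of all genes, and DESeq2 called 0. At an unadjusted p under 0.05, 2 members had a higher change in Cthrc1-/- than in WT, against 7.22% of all genes: Fmod by 1.60 on the log2 scale (SE 0.567, unadjusted p = 0.0176, adjusted p = 0.247) and Podn by 1.74 (SE 0.654, unadjusted p = 0.0232, adjusted p = 0.267). All 9 interaction values were positive, while 48.5% of all genes had a negative value. The members ran from 0.060 for Prelp upwards, with the highest for Ogn (SE 0.965, adjusted p = 0.375), and Omd and Prelp turned negative with single libraries left out (down to -0.071 and -0.38). These 9 values rest on the same Cthrc1-/- day 0 libraries as the day 0 comparison. Of the other members, Dcn was at 0.76, Lum at 1.20, Aspn at 1.47 and Omd at 0.53, with adjusted p from 0.451 to 0.819. The Bgn interaction was 0.46 (95% confidence interval -0.40 to 1.32, adjusted p = 0.582), so a difference between its rise in WT and in Cthrc1-/- dermis was not shown.

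The proportions of the family changed with the days. The ratio of Dcn to Bgn FPKM was 2.59, 3.39 and 2.55 in the WT libraries of day 0 and 0.867, 0.832 and 0.794 in those of day 7. In Cthrc1-/- libraries it was 2.97, 1.74 and 1.27 at day 0 and 1.01, 0.913 and 0.447 at day 7. Every day 0 library thus had more Dcn than Bgn, and every day 7 library except Cthrc1-/- replicate 1 had less, with the lowest day 0 value (1.27) above the highest day 7 value (1.01). The ratio contains the rise of Bgn given above and is no separate result, and the share of other gene pairs separated in this way was not computed. Bgn made up 10.4 to 13.0% of the summed member FPKM in WT libraries at day 0 and 24.95 to 34.2% at day 7, and 12.7 to 27.8% and 24.0 to 37.8% in Cthrc1-/- libraries. Dcn made up 33.7 ± 1.59% and 23.5 ± 5.33% in WT, and 35.7 ± 1.69% and 21.3 ± 3.88% in Cthrc1-/- (SD, n = 3 each). Unlike Dcn to Bgn, the ratio of Lum to Bgn overlapped between the days in Cthrc1-/- libraries, at 0.672 to 2.25 on day 0 and 0.704 to 1.14 on day 7. Relative to the summed 9 fibrillar collagen genes, the members at day 0 were at 0.159 to 0.209 in WT and 0.285 to 0.531 in Cthrc1-/- libraries, without overlap. At day 7 the same ratio was 0.151 to 0.250 and 0.241 to 0.321, with overlap.

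**Figure D4:**
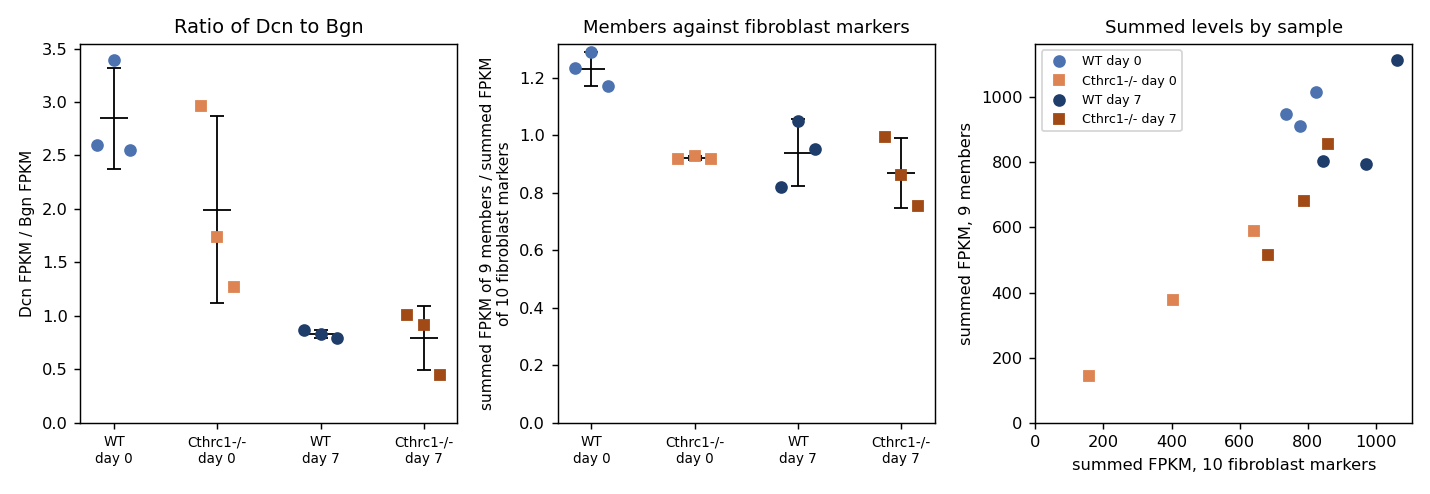
The left and middle panels show ratios of FPKM within each library, one point per library in the 4 groups with bars at the mean ± SD (n = 3), and the right panel the summed FPKM of the 9 members against that of the 10 fibroblast markers, one point per library coloured by group. The Dcn to Bgn ratio of all 6 day 0 libraries lies above that of all 6 day 7 libraries, and the ratio of members to fibroblast markers separates the genotypes at day 0 and overlaps at day 7.

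Genes that make, cut or bind these proteoglycans were counted from lists of the family's textbook partners. Over all tested genes edgeR called 3.51% higher and 2.26% lower at day 0, 6.04% and 7.1% between days in WT, and 0.859% and 0.601% between days in Cthrc1-/-. DESeq2 called 19.6% of all genes in either direction at day 0, 0.436% at day 7, 25% between days in WT and 4.79% for the interaction. The list counts are descriptions to be read against these shares. Of the other 9 family genes, 3 were expressed enough to be tested (Kera, Tsku and Ecm2) and 0 were called in any comparison by edgeR. The smallest p values among them were those of Ecm2 at day 0 (log2 change -1.71, adjusted p = 0.105), Tsku at day 7 (-1.45, adjusted p = 0.957), Kera between days in WT (-1.45, adjusted p = 0.0659) and in Cthrc1-/- (-0.45, adjusted p = 0.653), and Ecm2 for the interaction (1.58, adjusted p = 0.399). Tsku stood at 16.8, 3.57 and 2.26 FPKM in WT day 7 replicates 1, 2 and 3. DESeq2 called 1 of the 3 family genes at day 0 and 2 between days in WT.

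Of 24 genes for glycosaminoglycan chain synthesis, which build and sulfate the side chains, 22 were tested. At day 0, 1 was lower in Cthrc1-/-, the chondroitin sulfotransferase Chst15 (log2 change -0.89, adjusted p = 0.0496). Between days in WT, 3 rose and 2 fell, among them the chondroitin synthase Chsy1 (1.55, adjusted p = 0.0118) and Papss1, which makes the sulfate donor (-0.53, adjusted p = 0.0174). In the other comparisons 0 were called, and the smallest p values were those of Chsy1 at day 7 (-0.83, adjusted p = 0.907), Chpf2 between days in Cthrc1-/- (SE 0.306, adjusted p = 0.120) and Chst15 for the interaction (1.14, adjusted p = 0.203). Of 13 proteases and helpers, 10 were tested, and the collagenase Mmp13 (3.57, adjusted p = 0.0231) and the gelatinase Mmp9 (2.98, adjusted p = 0.0467) rose between days in WT. The WT day 7 replicates differed widely, with Mmp13 at 2.06, 23.8 and 6.03 FPKM and Mmp9 at 49.2, 13.1 and 3.44 FPKM. At day 0 Mmp9 was at 2.32 to 3.04 FPKM in WT. None of the 10 was called elsewhere: Mmp14 had the smallest p at day 0 (-1.22, adjusted p = 0.0636) and for the interaction (0.86, adjusted p = 0.411), Adamts4 at day 7 (-1.08, adjusted p = 0.931) and Bmp1, which trims the biglycan propeptide, between days in Cthrc1-/- (1.01, adjusted p = 0.142).

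Of 16 ligands and receptors that members of the family bind, 15 were tested. Bmp4 (-2.66, adjusted p = 0.0231) and Ccn4 (-1.55, adjusted p = 0.0429), which encodes the decorin- and biglycan-binding matricellular protein WISP1, were lower in Cthrc1-/- at day 0. Ccn4 rose between days in WT (2.12, adjusted p = 0.00826) and in Cthrc1-/- (2.55, adjusted p = 0.0216), as Bgn did, and Bmp2 fell in WT (-2.69, adjusted p = 0.00779). At day 7 and for the interaction 0 of 15 were called by edgeR and 1 by DESeq2, with the smallest p values for Tlr4 (-3.16, adjusted p = 0.907) and Bmp4 (2.49, adjusted p = 0.193). Of 14 other proteoglycans, 12 were tested. The glypican Gpc1 (0.66, adjusted p = 0.0448) and the syndecan Sdc1 (0.62, adjusted p = 0.0478) were higher in Cthrc1-/- at day 0. Between days in WT 3 rose and 1 fell, among them Gpc1 (1.03, adjusted p = 0.00631) and the large proteoglycan versican, Vcan (1.81, adjusted p = 0.0172), and in Cthrc1-/- 1 fell, Sdc1 (-0.81, adjusted p = 0.0401). At day 7 and for the interaction 0 of 12 were called, with the smallest p values for Prg4 (-4.44, adjusted p = 0.907) and Gpc1 (-0.84, adjusted p = 0.195), where DESeq2 called 1 and 2.

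Of 9 fibrillar collagen genes, whose fibrils the members bind, 7 were tested. Col1a2 was lower in Cthrc1-/- at day 0 (-2.43, adjusted p = 0.0480), and Col11a1 rose between days in WT (2.30, adjusted p = 0.00657) and in Cthrc1-/- (1.78, adjusted p = 0.0443). At day 7 and for the interaction 0 of 7 were called, with the smallest p values for Col5a3 (-1.67, adjusted p = 0.930) and Col1a2 (1.65, adjusted p = 0.368). Col5a3 stood at 159, 27.6 and 15.7 FPKM in WT day 7 replicates 1, 2 and 3. The median log2 change at day 0 was -1.82 for the collagens, -1.46 for the 9 members, -0.96 for the proteases and -0.25 for chain synthesis. Between days in WT these medians were 0.83, -0.41, 0.28 and 0.11, and in Cthrc1-/- 1.40, 0.46, 0.70 and 0.11. The 3 tested genes of the other family list had medians of -0.79, -1.45 and -0.21 in these comparisons. With 1 library left out, the day 0 counts called ranged from 0 to 5 for chain synthesis and for collagens. They ranged from 0 to 3 for proteases, ligands and receptors, and other proteoglycans. Between days in WT they were 0 to 7 for chain synthesis, 0 to 4 for proteases and 2 to 4 for ligands and receptors. Other proteoglycans were at 1 to 5 and collagens at 1 to 2. Between days in Cthrc1-/- each of these lists fell to 0 in some fit. Over these fits the share of all genes called ranged from 0.126% to 15% at day 0. Between days it ranged from 3.68% to 21% in WT and from 0.0349% to 6.36% in Cthrc1-/-.

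The genes whose levels over the 12 libraries were most like the mean of the 9 members were found as those with the smallest root mean square difference between centred log2(FPKM + 1) profiles, among 4685 genes with a mean of at least 10 FPKM. They were Dpep1 at 0.123 log2 units, Itgbl1 at 0.198, Antxr1 at 0.199, Adamts2 and Dpt, both at 0.215, and Mmp2 at 0.238, against a median of 0.834 over all these genes. Within the family, Dcn and Podn were each other's nearest member (0.310), and so were Ogn and Aspn (0.454), which are neighbours in the chromosome 13 cluster with Omd between them. Dcn and Lum, neighbours on chromosome 10, were not: the nearest member to Lum was Aspn (0.457). Fmod was nearest to Podn (0.484), Prelp to Dcn (0.430) and Omd to Ogn (0.662). Bgn was the farthest from the mean of the members (0.700), and its nearest member, Lum, was 0.732 away, while the non-member Lsp1 lay at 0.164. The nearest non-members to the others were Cd34 for Dcn (0.271), Eln, the elastin gene, for Lum (0.231) and Ogn (0.366), Cyp4b1 for Fmod (0.218), Enpp2 for Omd (0.414), Serping1 for Prelp (0.232), C1qtnf3 for Aspn (0.281) and Clec11a for Podn (0.295). These distances describe profiles that share the same 12 libraries and their cell composition.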

How the data were processed

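Poly(A) RNA of 12 dermis samples was sequenced as paired-end libraries with molecular identifiers, per the labels' protocols. The submitters' processing notes name GRCm38, cutadapt 1.9, HISAT2 2.0.4, UMI-tools, StringTie 1.3.4d, DESeq2 and edgeR, without roles. The authors deposited 1 table of 55401 genes with a read count and an FPKM value per sample. The counting rule, annotation and use of strand are not given in the sources used here. Among the deposited counts, 4 was 3.16 to 4.05 times as frequent as the mean of its neighbours 3 and 5, depending on the library, and counts divided by 4 were tried as an alternative.

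Gene IDs were named from GENCODE M21. Counts of the 14313 genes with a mean of at least 1 FPKM (all 9 members) were tested with edgeR 4.0.16 (R 4.3.3; TMM scaling, quasi-likelihood test, all 12 samples in 1 fit, Benjamini-Hochberg adjustment over all these genes, called at an adjusted p under 0.05). Fold changes therefore use TMM scaling and differ slightly from ratios of FPKM means. Alternatives were DESeq2 1.42.0, limma 3.58.1 on log2(FPKM + 1) and log2(FPKM + 0.1), total-count scaling, no filter, only the groups compared, the replicate number as a block and each library left out. Leaving out the 2 libraries that stood apart was added after the data were seen. The edgeR step was tested on simulated data. Confidence intervals use the spread between samples pooled over the 4 groups.

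The members and gene lists were chosen with earlier results of these data known. All members are reported in every comparison, and of each related list the 2 called genes with the smallest p, or the single gene with the smallest p where none was called. Bglap, Col2a1, S100a9 and other markers were named as measures of tissue content. Sequences come from RefSeq's GRCm38.p6 table.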

Additional observations from a re-analysis of the deposited data

How the results depend on the processing

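With 1 library left out, the number of members called ranged from 0 to 5 for Cthrc1-/- against WT at day 0 (1 with all libraries), from 0 to 3 between days in WT (2) and from 0 to 1 between days in Cthrc1-/- (1), and it was 0 at day 7 and for the interaction in all these fits. The share of all genes called ranged from 0.126% to 15%, 3.68% to 21% and 0.0349% to 6.36% in these first 3 comparisons. It was at most 0.0279% at day 7 and 1.69% for the interaction. At day 0 DESeq2 called 5 members (19.6% of all genes), the fit of only the groups compared 0 (0.133%), the replicate block 3 (6.17%) and the fit without both libraries that stood apart 2 (6.82%), against 5.78% of all genes with the reported fit. Between days in Cthrc1-/- the fit of only the groups compared called 0 (0.622% of all genes, against 1.46%), and between days in WT the fit without a filter called 1 (3.77%, against 13.1%). Total-count scaling and counts divided by 4 changed none of the 4 member calls. Total-count scaling moved the median of all genes by 0.196 between days in WT and 0.158 in Cthrc1-/-, and relative to that median Bgn was at 0.95 and 1.45 and Fmod in WT at -1.59. The share of calls over all genes that were higher went from 60.8% to 71.4% at day 0, from 46.0% to 75.5% between days in WT and from 58.9% to 86.9% in Cthrc1-/-.

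Same-numbered libraries correlated at -0.232 to 0.426 in their deviations from the group means, and differently numbered ones at -0.453 to 0.520. With so few libraries per group these values cannot decide whether the numbers pair the samples, and the labels do not say. In the replicate block fit Dcn (-1.60, adjusted p = 0.0454) and Fmod (-1.46, adjusted p = 0.0484) joined Podn at day 0, and between days in WT Podn was called (-1.40, adjusted p = 0.0335) and Bgn was not (0.93, adjusted p = 0.0520).

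No change of sign touched a called value, and each value that changed sign was uncalled in its comparison in every fit. Aspn at day 7 was at 0.10 and 0.11 with limma at the 2 pseudocounts. Dcn between days in Cthrc1-/- was at 0.18 with total-count scaling, 0.31 with limma at either pseudocount, 0.036 with only the groups compared and 0.082 with the replicate block. Fmod there was at 0.19, 0.0022 without a filter, 0.21 and 0.24 with limma, 0.053 and 0.018. Between days in WT, Omd was at 0.12 with total-count scaling, and Prelp at -0.062 and -0.070 with limma and -0.31 with the replicate block. Without both libraries that stood apart, Aspn (0.019), Ogn (0.039), Omd (0.43) and Prelp (-0.80) changed sign between days in WT, as did Prelp in Cthrc1-/- (-0.31), Ogn at day 7 (-0.18) and the Omd interaction (-0.083). With 1 library left out, the values that crossed 0 ranged from -0.77 to 0.24 (Aspn), -0.16 to 0.47 (Fmod) and -0.37 to 1.09 (Ogn) at day 7, from -1.01 to 0.088 (Aspn), -1.26 to 0.11 (Ogn), -0.81 to 0.50 (Omd) and -0.73 to 0.49 (Prelp) between days in WT, from -0.43 to 0.58 (Dcn), -0.37 to 0.27 (Fmod) and -0.30 to 0.63 (Prelp) in Cthrc1-/-, and from -0.071 to 1.21 (Omd) and -0.38 to 0.94 (Prelp) for the interaction. The cause was not tested.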
